A study of Mus musculus with 30 samples.

Results

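The tip of a digit was removed from mice, and the tissue collected 24 h later was set against tissue collected at 0 h. These groups hold 3 mice each, 6 of the 30 mice of the series, and were chosen by the time point in the labels. All were adult male C57Bl/6 mice of 9 to 10 weeks. At most 33% of the distal phalanx of hindlimb digit 3 was taken off and the skin was left unsutured, always on the right foot in these 6. The paper's surgical account has the footpad cut as well as the phalanx. The labels name no transgene and no treatment other than the amputation. The 0 h mice are the only baseline, with no sham wound beside them, and the sources used here do not state how much of the digit was taken for RNA at 0 h. Poly(A) RNA was sequenced from 1 end, 65 bases a read, and the authors deposited an estimated read count per gene and mouse. The other times (3, 6 and 12 h, then 3, 7, 14 and 21 d) enter only to estimate the spread and to place 24 h in the sequence. The titles do not say whether a number pairs a mouse at 0 h with a mouse at 24 h, and nothing pairs them here.

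The digit tip of the mouse can regrow after an amputation through its most distal bone, and the opening phase is that of a skin and bone wound. Injured cells and resident leukocytes release cytokines of the Il1 and Il6 families and chemokines that bring in neutrophils and then monocytes. Keratinocytes migrate below the clot, matrix enzymes are switched on to let them pass, and osteoclasts erode the bone stump before a blastema forms. The genes below are arranged along that sequence: signals, leukocytes, matrix enzymes, vessels and matrix, and then the genes that were lower at 24 h.

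Some libraries stood apart, and this bears on what follows. Totals ran from 4843416 to 12773273 counts. Dates in the titles place 0 h replicate 3 and 24 h replicates 1 and 2 in July and August, and 0 h replicates 1 and 2 and 24 h replicate 3 in November and December, so that 0 h and 24 h each hold mice of both date periods. What the dates mark (surgery, collection or library) is not given in the sources used here, nor whether the 0 h tissue was the amputated tip or the stump. The title of 0 h replicate 3 carries the same animal tag, date and foot as that of 12 h replicate 2, so the labels do not show that these are separate mice. Their counts differed far beyond sampling noise, with a chi-square of 24 per degree of freedom against 17.8 to 35.6 between mice of 0 h. The libraries are thus not copies of each other, but this cannot tell whether both came from 1 mouse. Both were kept. CPM are counts scaled to an equal library total, with TMM factors. The 24 h replicate 3 library held 90975 CPM from 75 tested genes with an Rps or Rpl symbol, against 35942 to 42123 CPM in the other 5 mice. These are symbols of ribosomal proteins, with Rps19bp1 included and the Rplp symbols left out. The 0 h replicate 2 library held 119.8 CPM from 16 skeletal muscle genes, 8 of them tested, against 7.68 to 15.4 CPM in the others. It held 550.2 CPM from the 9 of 11 erythroid genes present in the counts, 7 of them tested, against 92.8 to 263. Krt9, the keratin of footpad skin, stood at 9312, 11266 and 11287 CPM at 0 h (here and below in the order of replicates 1, 2 and 3) and at 28.5, 109 and 4516 CPM at 24 h. It did not pass the test (log2 fold change -2.78, SE 1.61, adjusted p = 0.63). The part that skin or footpad taken with the digit has in the results was not tested. The tissue carried the markers of a digit tip in every mouse: Krt1 and Krt10 of the epidermis at 12049.7 to 28676 CPM, nail and hair keratins at a sum of 5699.8 to 12546 CPM, and Col1a1, the main collagen of bone and dermis, at 602 to 2865 CPM. In bulk tissue, fewer cells of a type and less RNA per cell cannot be told apart.

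At 24 h, 68 of 13793 tested genes (0.493%) differed from 0 h in edgeR's quasi-likelihood fit to all 30 mice, with 0.05 as the threshold for p after Benjamini-Hochberg adjustment over all tested genes. Of these, 56 (0.406%) rose and 12 (0.087%) fell, and 36 of the 56 rose at least 4-fold in mean CPM. In all 68 the 3 mice at 24 h lay beyond all 3 mice at 0 h, as did 8.77% of all tested genes upwards and 9% downwards. The genes that rose most were Il6, Cxcl2, Mmp3, S100a8, Lif, Il1b, S100a9, Mmp13 and Timp1, a set of cytokines, neutrophil attractants, calgranulins and matrix enzymes. Those that fell most were Edar, Fosb, Bglap2 and Fos. At an unadjusted p under 0.05 there were 1298 genes (9.41%). With 3 mice a group the calls leaned on single mice. Without 0 h replicate 1 or 2, 21 and 31 genes were called, and without any other of the 6 mice 50 to 70. Of the 68, 47 lost the call without 0 h replicate 1, 37 without 0 h replicate 2, 19 without 0 h replicate 3, and 18, 18 and 17 without 24 h replicates 1, 2 and 3. A total of 18 genes passed under every alternative and without each mouse in turn: Il6, Lif, Il1rl1, Mmp3, Mmp13, Timp1, Adamts4, Plaur, Icam1, Pdpn, Tnc, Crispld2, Smim3, Slc39a14 and Gpm6b rose, and Fos, Fosb and Jun fell.

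**Figure D1:**
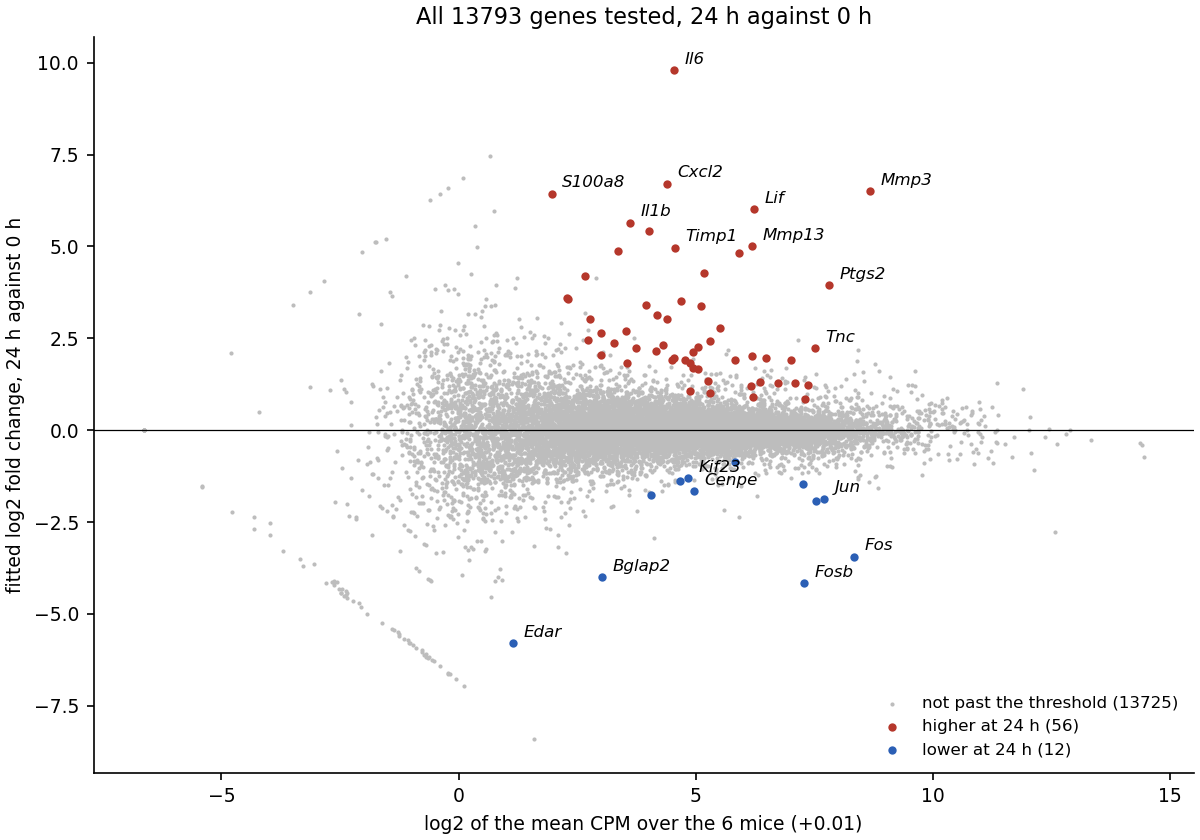
Fitted log2 fold change of 24 h against 0 h (vertical axis) by the log2 of mean CPM over the 6 mice plus 0.01 (horizontal axis) for all tested genes, 1 point a gene. Red points are the 56 genes called higher and blue points the 12 called lower. Among these called genes Il6 lies highest and Edar lowest.

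The stretches of 250 bases before the start of 8 of these genes are shown because AP-1 genes are among those that fell and NF-kappaB genes among those that rose. They are the 2 cytokine and 2 Mmp genes that passed every alternative, the 2 chemokine genes that rose most, and the 2 AP-1 genes that fell most. Adamts4, an enzyme gene that also passed every alternative, is not shown. It is not among the genes that rose for which AP-1 letters were found. The stretches are from RefSeq on GRCm38.p6, 5′ to 3′ on the gene's strand. Capitals mark matches on either strand to TGANTCA, the letters that AP-1 (dimers of Fos and Jun proteins) is known to bind, to TATAAA, and to the NF-kappaB consensus.
Il6 (chr5:30012864-30013113, plus strand): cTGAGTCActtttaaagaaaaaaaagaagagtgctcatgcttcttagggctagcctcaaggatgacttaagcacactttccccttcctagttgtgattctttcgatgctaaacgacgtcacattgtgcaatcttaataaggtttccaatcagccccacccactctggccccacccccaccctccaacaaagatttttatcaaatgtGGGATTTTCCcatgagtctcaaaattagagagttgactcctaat
Lif (chr11:4257318-4257567, plus strand): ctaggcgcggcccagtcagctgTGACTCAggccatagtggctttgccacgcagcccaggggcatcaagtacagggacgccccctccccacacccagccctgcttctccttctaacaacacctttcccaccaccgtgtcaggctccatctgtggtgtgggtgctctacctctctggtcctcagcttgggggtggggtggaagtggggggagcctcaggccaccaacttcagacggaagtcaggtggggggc
Mmp3 (chr9:7445572-7445821, plus strand): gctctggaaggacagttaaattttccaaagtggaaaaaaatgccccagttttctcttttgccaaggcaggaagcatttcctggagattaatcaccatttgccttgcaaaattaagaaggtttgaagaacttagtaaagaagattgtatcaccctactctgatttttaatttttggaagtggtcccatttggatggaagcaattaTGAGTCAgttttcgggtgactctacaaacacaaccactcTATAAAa
Mmp13 (chr9:7272264-7272513, plus strand): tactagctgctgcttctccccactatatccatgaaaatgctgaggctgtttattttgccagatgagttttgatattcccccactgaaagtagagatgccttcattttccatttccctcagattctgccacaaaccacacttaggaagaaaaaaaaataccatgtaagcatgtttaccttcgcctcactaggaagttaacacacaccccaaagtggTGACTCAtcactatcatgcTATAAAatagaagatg
Cxcl1 (chr5:90890995-90891244, plus strand): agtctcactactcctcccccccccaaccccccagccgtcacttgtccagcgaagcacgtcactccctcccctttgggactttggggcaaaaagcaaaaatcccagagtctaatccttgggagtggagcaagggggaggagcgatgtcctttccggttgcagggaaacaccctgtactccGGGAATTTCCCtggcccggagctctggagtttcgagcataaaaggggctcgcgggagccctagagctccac
Cxcl2 (chr5:90903649-90903898, plus strand): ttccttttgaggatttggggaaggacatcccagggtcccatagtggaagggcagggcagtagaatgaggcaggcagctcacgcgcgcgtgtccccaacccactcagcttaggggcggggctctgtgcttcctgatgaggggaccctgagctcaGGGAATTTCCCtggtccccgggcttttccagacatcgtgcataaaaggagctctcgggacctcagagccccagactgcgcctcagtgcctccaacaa
Fos (chr12:85473640-85473889, plus strand): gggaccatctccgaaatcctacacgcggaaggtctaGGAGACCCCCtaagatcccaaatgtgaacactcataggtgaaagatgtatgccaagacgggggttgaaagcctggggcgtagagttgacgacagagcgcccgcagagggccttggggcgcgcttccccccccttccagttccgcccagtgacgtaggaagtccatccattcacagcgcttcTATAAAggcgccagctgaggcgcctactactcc
Fosb (chr7:19310046-19310295, minus strand): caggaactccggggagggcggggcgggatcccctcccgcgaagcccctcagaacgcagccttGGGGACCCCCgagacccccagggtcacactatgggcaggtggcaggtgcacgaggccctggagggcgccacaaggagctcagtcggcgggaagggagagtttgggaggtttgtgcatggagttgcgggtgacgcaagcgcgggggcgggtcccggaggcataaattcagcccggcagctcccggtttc
The AP-1 letters were in Il6, Lif, Mmp3 and Mmp13, the NF-kappaB letters in Il6, Cxcl1, Cxcl2, Fos and Fosb, and TATAAA in Mmp3, Mmp13 and Fos. In Cxcl1 and Cxcl2 the 2 NF-kappaB matches overlap by 9 bases and lie on opposite strands. Of 32851 promoters of this length, 6.75% hold the AP-1 letters, 5.93% the NF-kappaB letters and 12.4% TATAAA. A promoter was at hand for 46 of the 56 genes that rose, of which 8 held the AP-1 letters (17.4%), 8 the NF-kappaB letters (17.4%) and 12 TATAAA (26.1%). For 10 of the 12 that fell the numbers were 0, 3 and 1. A gene was counted if any of its promoters matched, whereas the shares of 6.75%, 5.93% and 12.4% are per promoter. A gene with several promoters has more chances to match, so the 2 kinds of share are not alike. These matches describe letters only.

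Among the signals, the cytokines Il6 and Lif, which both act through the shared receptor Il6st, went from near absence to clear expression. Il6 (chr5:30013114-30019981, plus strand), the acute cytokine of wounds, had 0.080, 0 and 0 CPM at 0 h and 37.8, 56 and 46.5 CPM at 24 h. Its counts were 1, 0 and 0 at 0 h, against 243, 357 and 199 at 24 h, so that the groups are separated by the whole range, with a ratio of 1316-fold (95% exact interval from 236 to 52055) that covers counting error only (adjusted p = 0.000149). Lif (chr11:4257557-4272514, plus strand), a cytokine of the same family, stood at 1.92, 2.98 and 1.92 CPM against 179, 185 and 79.7 CPM, with the lowest 24 h mouse far above the highest 0 h mouse (log2 fold change 6.01, SE 0.59, adjusted p = 9.47e-07). Both were past the threshold without each mouse in turn. The list of Il6 family cytokines, receptors and feedback genes had 14 tested members, of which 2 rose, 0 fell and 12 did not pass, with a median log2 fold change of 0.77 against 0.0074 over all tested genes. The receptor Il6st went from 176 ± 21 to 257 ± 73.9 CPM (SD, n = 3), its transducer Stat3 from 116 ± 8.33 to 181 ± 30.7, and the feedback inhibitor Socs3 from 37.2 ± 13.4 to 87.1 ± 11.7, without passing the test (adjusted p = 0.37, 0.233 and 0.396).

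Il1b, the first-line inflammatory cytokine of macrophages and neutrophils, had 0.24, 0.107 and 1.28 CPM at 0 h and 20.7, 18 and 33 CPM at 24 h (log2 fold change 5.65, SE 1.05, adjusted p = 0.00478). The counts behind the 0 h values were 3, 1 and 8. The groups did not overlap, and the call was not past the threshold without 0 h replicates 1 or 2 (adjusted p from 0.0761 to 0.0828). Il1rl1, the receptor of the alarmin Il33, rose from 3.2, 2.24 and 5.44 to 76.2, 66 and 65.2 CPM, with little spread at 24 h (log2 fold change 4.28, SE 0.73, adjusted p = 0.00244). It was past the threshold without each mouse in turn. The list of the Il1 family had 15 tested members, 2 of them higher and 0 lower, with a median of 0.34. In the list of prostaglandin, nitric oxide and arginase enzymes, 1 of 11 tested members rose. This was Ptgs2, the inducible cyclooxygenase, with 9.12, 4.58 and 70.4 CPM at 0 h and 542, 409 and 319.9 CPM at 24 h. The 0 h replicate 3 mouse, with the only July date at 0 h, was the highest of its group here, as in 30 of the 56 genes that rose (53.6%, against 37.1% of all tested genes). The gain of Ptgs2 (log2 fold change 3.95, SE 0.93, adjusted p = 0.0441) was not past the threshold without 0 h replicates 1 or 2 or 24 h replicates 1, 2 or 3 (adjusted p from 0.0529 to 0.338). Ptges3, a cytosolic prostaglandin E synthase, had 156 ± 1.59 and 235 ± 12.3 CPM (SD, n = 3, adjusted p = 0.0602).

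Of the chemokines that attract neutrophils, Cxcl1 and Cxcl2 rose. Cxcl1 had 2.0, 1.49 and 9.76 CPM at 0 h and 89.7, 138 and 122 CPM at 24 h (log2 fold change 4.82, SE 0.95, adjusted p = 0.00861). Cxcl2, its close relative, had 0, 0.426 and 0.96 and 35.7, 22 and 67.8 CPM (log2 fold change 6.71, SE 1.28, adjusted p = 0.00606), from 0 h counts of 0, 4 and 6. Both had every 24 h mouse above every 0 h mouse. Cxcl1 was not past the threshold without 0 h replicates 1 or 2 (adjusted p from 0.106 to 0.118), and Cxcl2 was not past the threshold without 0 h replicates 1 or 2 (adjusted p from 0.0724 to 0.0854). Of the 5 tested members of that list 2 rose and 0 fell, with a median of 4.14. Cxcl5, a member that epithelium can make, went from 0.826 ± 0.395 to 14.1 ± 2.2 CPM (SD, n = 3) with an adjusted p of 0.0848. No chemokine of the CC class, which attract monocytes, passed the test. In that list 13 of 14 tested members had a fitted log2 fold change above 0, with a median of 1.57. An unadjusted p under 0.05 was found for 7 (9.41% of all tested genes, either direction). Ccl9 had 5.4 ± 1.67 and 14.6 ± 2.76 CPM and Ccl6 26.9 ± 10.3 and 41.5 ± 16.6 CPM (SD, n = 3, adjusted p = 0.32 and 0.697).

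The neutrophil markers had 17 tested members of 22, of which 4 rose, 0 fell and 13 did not pass. Their median log2 fold change was 2.52, and all 17 were above 0, as were 7004 of all 13793 tested genes. The filter on low counts used all time points, so members near 0 CPM at 0 h could be kept for their counts at other times. That favours changes above 0, here and in the chemokine lists. The summed level of the 21 members present in the counts, tested or not, was 53.6 to 55.7 CPM at 0 h and 122 to 310.1 CPM at 24 h. The highest sum was that of 24 h replicate 3, and the sums include the 4 called genes. DESeq2 called 8 of the list and the fit to the mice of 0 h and 24 h only called 2, while without 0 h replicate 1, 0 h replicate 2 and 24 h replicate 3 the numbers were 0, 1 and 2. S100a8, a calgranulin of neutrophils and stressed keratinocytes, had counts of 0, 2 and 0 at 0 h and 44, 39 and 44 at 24 h, a ratio of 105-fold (95% exact interval from 28.4 to 873) for counting error only (adjusted p = 0.0113). S100a9, its partner in the same heterodimer, had 0.72, 0.64 and 0.80 CPM against 17.9, 14.1 and 63.6 CPM (log2 fold change 5.43, SE 0.998, adjusted p = 0.0044). Clec4d, a C-type lectin receptor of myeloid cells, had 0.80, 0.746 and 0.32 against 9.19, 4.39 and 46.5 CPM (log2 fold change 4.89, SE 0.91, adjusted p = 0.00477). For S100a9 and Clec4d the November or December mouse at 24 h stood several-fold above the others of its group. S100a8 was not past the threshold without 0 h replicates 1, 2 or 3 (adjusted p from 0.0665 to 0.144), S100a9 was not past the threshold without 0 h replicates 1 or 2 (adjusted p from 0.0523 to 0.0657), and Clec4d was not past the threshold without 0 h replicate 1 or 24 h replicate 3 (adjusted p from 0.057 to 0.0688). BC100530, a stefin gene of which 43% of 31-base stretches occur in other genes, chiefly Stfa1, had 7.92, 8.63 and 17.8 and 44.4, 28.1 and 92.8 CPM (log2 fold change 2.28, SE 0.46, adjusted p = 0.00928), and its reads may be shared with those copies. It was not past the threshold without 0 h replicates 1 or 2 or 24 h replicate 3 (adjusted p from 0.121 to 0.139). Elane, the elastase of young neutrophils, had no count in any of the 6 mice. The list of epidermal antimicrobial genes had 14 tested members, of which 3 rose, S100a8, S100a9 and Slpi, with a median of 0.35. Slpi, an inhibitor of neutrophil elastase, had 0.24, 1.066 and 0.96 against 7.94, 6.59 and 12.4 CPM (log2 fold change 3.61, SE 0.77, adjusted p = 0.0181) and was not past the threshold without 0 h replicates 1, 2 or 3 or 24 h replicate 3 (adjusted p from 0.0672 to 0.223). Of the monocyte and macrophage markers, 1 of 20 rose, with a median of 0.12. This was Cd14, the co-receptor for endotoxin, with 3.11 ± 0.576 and 13 ± 1.92 CPM (SD, n = 3, adjusted p = 0.044), not past the threshold without 0 h replicates 1, 2 or 3 or 24 h replicates 1, 2 or 3 (adjusted p from 0.0694 to 0.298).

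**Figure D2:**
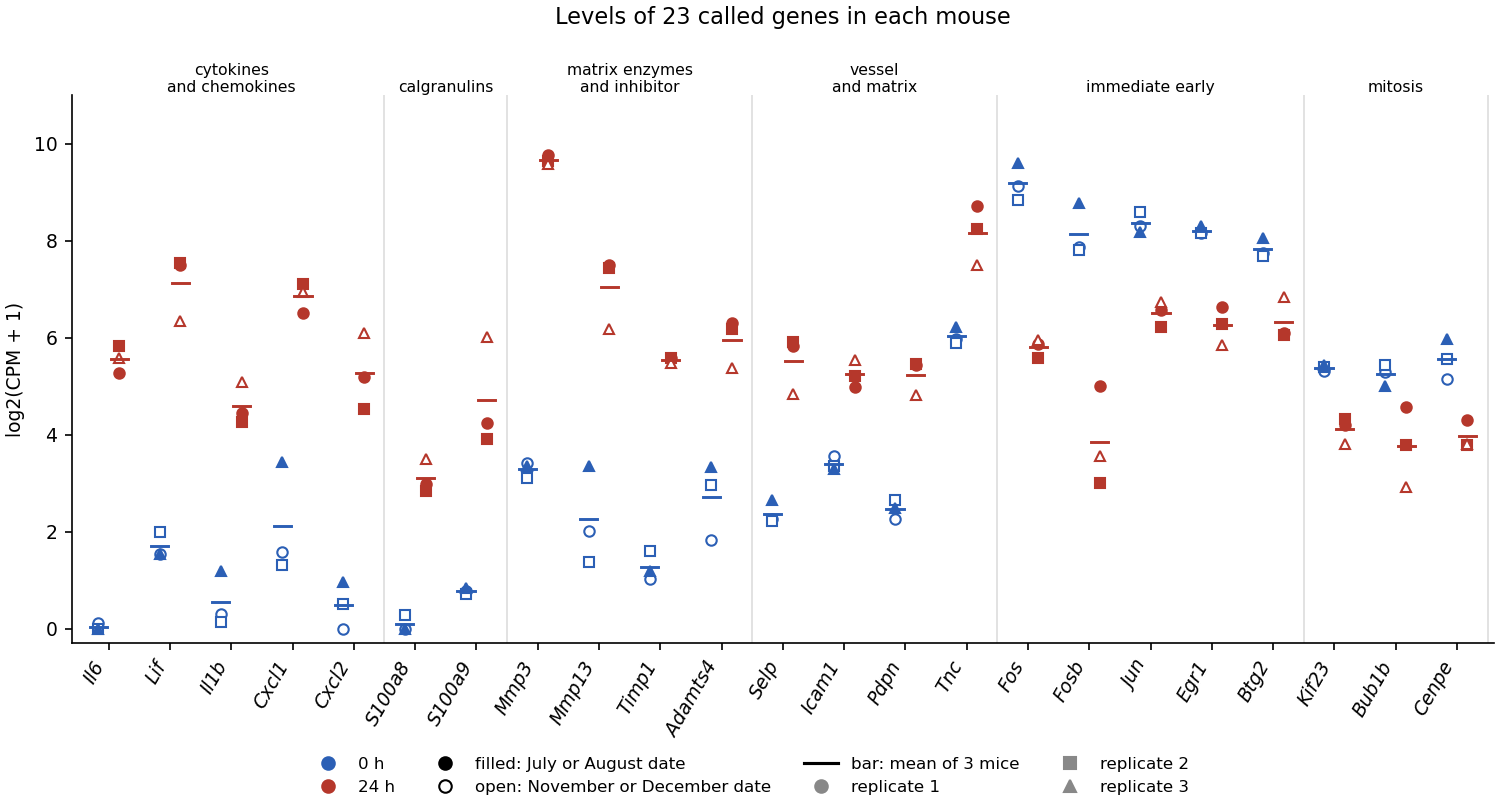
Level of 23 called genes in each of the 6 mice on the log2(CPM + 1) scale (vertical axis), grouped by role along the horizontal axis, with 0 h in blue, 24 h in red, and a bar at the mean of 3 mice. The groups do not overlap in any of the 23, as in all 68 called genes from which these were taken (8.77% of all tested genes upwards and 9% downwards). Filled points (July or August dates) and open points (November or December dates) therefore lie on the same side, which adds nothing to the calls.

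Of 17 tested matrix metalloproteinases and their Timp inhibitors 3 rose, the enzymes Mmp3 and Mmp13 and the inhibitor Timp1. Mmp3 (chr9:7445822-7455975, plus strand), a stromelysin with a broad range of matrix substrates, stood at 9.68, 7.57 and 9.28 CPM at 0 h and 870.3, 797 and 759.5 CPM at 24 h, 91.5-fold in the mean (adjusted p = 8.03e-05). Per transcript length it was the most abundant of the 68 called genes at 24 h, at a mean of 931 TPM (a share of transcripts corrected for their length). Mmp13 (chr9:7272514-7283331, plus strand), a collagenase of keratinocytes, osteoblasts and hypertrophic cartilage, had 3.04, 1.6 and 9.28 CPM at 0 h and 181, 173 and 71.7 CPM at 24 h (log2 fold change 5.01, SE 0.78, adjusted p = 0.000689). Timp1 (chrX:20870166-20874735, plus strand), a secreted inhibitor of these enzymes, had 1.04, 2.03 and 1.28 and 46.6, 46.9 and 43.5 CPM, with the narrowest spread at 24 h of the 3 (log2 fold change 4.97, SE 0.55, adjusted p = 6.11e-06). All 3 were past the threshold without each mouse in turn. The median over the list was -0.09, 8 of 17 were above 0, and none fell. The other 10 of 27 members had too few counts to be tested, among them Mmp8, the collagenase of neutrophils, with counts of 1, 0 and 1 at 0 h and 5, 4 and 0 at 24 h.

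Among the Adamts proteases and the genes of plasminogen activation, 3 rose. Adamts4, an aggrecanase, rose from 2.56, 6.82 and 9.12 to 77.7, 71 and 40.2 CPM (log2 fold change 3.39, SE 0.55, adjusted p = 0.000998), and was past the threshold without each mouse in turn. Adamts9, which cleaves versican, had 5.6, 4.26 and 10.2 and 36.8, 34.5 and 16.8 CPM (log2 fold change 2.16, SE 0.37, adjusted p = 0.00266) and was not past the threshold without 0 h replicate 1 (adjusted p = 0.0557). These were the 2 of 16 tested Adamts genes that rose, with a median of -0.23 over the list. Adamts1 had 27.4, 34.7 and 108 and 154, 153 and 93 CPM, which overlap (adjusted p = 0.32). In plasminogen activation, 1 of 7 tested genes rose, with a median of 0.85. It was Plaur, the urokinase receptor, at 4.4, 3.09 and 1.76 against 20.1, 16.8 and 12.4 CPM (log2 fold change 2.38, SE 0.44, adjusted p = 0.0044), past the threshold without each mouse in turn. The urokinase Plau had 28.7 ± 7.07 and 51.8 ± 5.17 CPM, and the inhibitors Serpinb2 and Serpine2 146 ± 42.8 and 277 ± 3.75, and 262 ± 21.1 and 466 ± 35.1 CPM (SD, n = 3), none past the test (adjusted p = 0.185, 0.21 and 0.379). Serpina3n, an inhibitor of serine proteases and an acute phase gene, rose from 9.68, 11.8 and 13.4 to 103, 81.2 and 55.2 CPM (log2 fold change 2.78, SE 0.64, adjusted p = 0.0357) and was not past the threshold without 0 h replicates 1, 2 or 3 or 24 h replicates 1 or 2 (adjusted p from 0.0874 to 0.268).

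In the provisional matrix, Tnc, the tenascin of healing wounds, rose from 62.2, 57.9 and 73.3 to 421, 303 and 179.7 CPM (log2 fold change 2.23, SE 0.34, adjusted p = 0.000689), and Inhba, the activin subunit of the TGF-beta family, from 11, 14.2 and 9.28 to 60.4, 45.8 and 23.8 CPM (log2 fold change 1.91, SE 0.39, adjusted p = 0.0118). Tnc was past the threshold without each mouse in turn, and Inhba was not past the threshold without 0 h replicates 1 or 3 or 24 h replicate 1 (adjusted p from 0.0909 to 0.0995). In both, the December mouse was the lowest at 24 h. They are 2 of 19 tested members of that list, with 0 lower and a median of 0.02. Tgfbi, a matrix protein induced by TGF-beta, had 144 ± 9.67 and 302 ± 52.2 CPM (SD, n = 3, adjusted p = 0.0775). Tnfaip6, which loads proteins onto hyaluronan, had 1.28, 2.77 and 4.16 against 27.9, 25.2 and 31.1 CPM (log2 fold change 3.40, SE 0.61, adjusted p = 0.00369), 1 of 12 tested genes of hyaluronan synthesis and binding, with a median of 0.38. It was not past the threshold without 0 h replicate 1 (adjusted p = 0.0705). Its list mates Vcan and Cd44, the proteoglycan versican and the hyaluronan receptor, had 45.4 ± 14.3 and 116 ± 40.9, and 296 ± 92.5 and 415 ± 37.9 CPM (SD, n = 3, adjusted p = 0.078 and 0.374). Pdpn, the podoplanin of lymphatic vessels, fibroblasts and migrating keratinocytes, rose from 3.76, 5.33 and 4.64 to 42.5, 43 and 27.1 CPM (log2 fold change 3.04, SE 0.36, adjusted p = 1.36e-05), past the threshold without each mouse in turn. No collagen of 18 tested passed the test, with a median of -0.33. Col1a1 had 1544, 2865 and 1111 CPM at 0 h, highest in the mouse with muscle counts, and 1550.0, 1081 and 602 CPM at 24 h (adjusted p = 0.517).

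Of 17 tested endothelial markers 3 rose, 0 fell and 14 did not pass. Selp, the P-selectin that endothelium and platelets expose, had 3.76, 3.62 and 5.28 CPM at 0 h and 55.4, 59 and 27.6 CPM at 24 h (log2 fold change 3.50, SE 0.65, adjusted p = 0.00446). Sele, the inducible E-selectin, had 9.04, 8.63 and 20.0 and 60.9, 91.1 and 46 CPM (log2 fold change 2.42, SE 0.47, adjusted p = 0.00702), and Flt1, a receptor for Vegf, 20.7, 17.6 and 18.4 and 38.6, 50.7 and 29.7 CPM (log2 fold change 1.070, SE 0.24, adjusted p = 0.0296). Selp was not past the threshold without 0 h replicates 1 or 2 (adjusted p from 0.060 to 0.0699), Sele was not past the threshold without 0 h replicates 1 or 2 (adjusted p from 0.093 to 0.105), and Flt1 was not past the threshold without 0 h replicates 1, 2 or 3 or 24 h replicates 1 or 2 (adjusted p from 0.0676 to 0.232). Without 0 h replicate 2 none of the list was called. Of the 17 members 13 were above 0, with a median of 0.54 and a summed level of 279.7 to 314 CPM at 0 h and 339 to 562 CPM at 24 h. These sums include the called Selp, Sele and Flt1, and whether the rest of the list rose was not tested. Icam1, the ligand of leukocyte integrins, rose from 10.8, 9.17 and 8.8 to 30.7, 35.8 and 45.8 CPM (log2 fold change 1.96, SE 0.35, adjusted p = 0.00302), past the threshold without each mouse in turn. It is listed with the NF-kappaB members and feedback genes, of which 3 of 16 tested rose, 15 were above 0 and the median was 0.74. The others were Bcl3, a nuclear partner of the NF-kappaB subunits (2.18 ± 0.605 and 13.8 ± 1.6 CPM, SD, n = 3, adjusted p = 0.0288), and Sod2, the mitochondrial superoxide dismutase (114 ± 1.074 and 204 ± 40.9 CPM, SD, n = 3, adjusted p = 0.00914). Bcl3 was not past the threshold without 0 h replicates 1, 2 or 3 or 24 h replicates 1 or 2 (adjusted p from 0.0674 to 0.247), and Sod2 was not past the threshold without 0 h replicates 1 or 2 or 24 h replicate 2 (adjusted p from 0.0761 to 0.127).

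For bone, Tnfsf11, the ligand that makes osteoclasts mature, rose from 0.24, 0.959 and 0.80 to 18.2, 9.1 and 8.65 CPM (log2 fold change 4.21, SE 0.72, adjusted p = 0.0025), not past the threshold without 0 h replicate 1 (adjusted p = 0.0557). It was the called member among 13 tested osteoclast markers and signals, whose median was -0.02. Bglap2, an osteocalcin gene of osteoblasts, fell from 12.9, 20.1 and 13.3 to 1.56, 1.1 and 0 CPM (log2 fold change -3.99, SE 0.81, adjusted p = 0.0113), with counts of 161, 189 and 83 against 10, 7 and 0. As 95.2% of its 31-base stretches occur in other genes, chiefly Bglap, the reads cannot be given to 1 copy with certainty, and it was not past the threshold without 0 h replicate 2 or 24 h replicates 2 or 3 (adjusted p from 0.0672 to 0.0731). The other 14 of 15 tested osteoblast and osteocyte markers did not pass, with a median of -0.44 for the list. Slc16a3, the lactate exporter, was the 1 gene of 25 tested hypoxia and glycolysis genes that rose, from 2.24, 2.77 and 4.48 to 19.2, 25.2 and 15.4 CPM (log2 fold change 2.69, SE 0.47, adjusted p = 0.00302), not past the threshold without 0 h replicate 1 (adjusted p = 0.0616). Of that list 22 were above 0, with a median of 0.34, and Ldha, the lactate dehydrogenase, had 606 ± 77.8 and 796 ± 105 CPM (SD, n = 3, adjusted p = 0.399). Sfrp4, an inhibitor of Wnt ligands, rose from 9.04, 10.6 and 15 to 57.6, 59.3 and 33.7 CPM (log2 fold change 2.13, SE 0.46, adjusted p = 0.018), 1 of 25 tested Wnt and nail epithelium genes with a median of -0.07, and was not past the threshold without 0 h replicates 1 or 2 or 24 h replicates 1 or 2 (adjusted p from 0.0671 to 0.186).

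**Figure D3:**
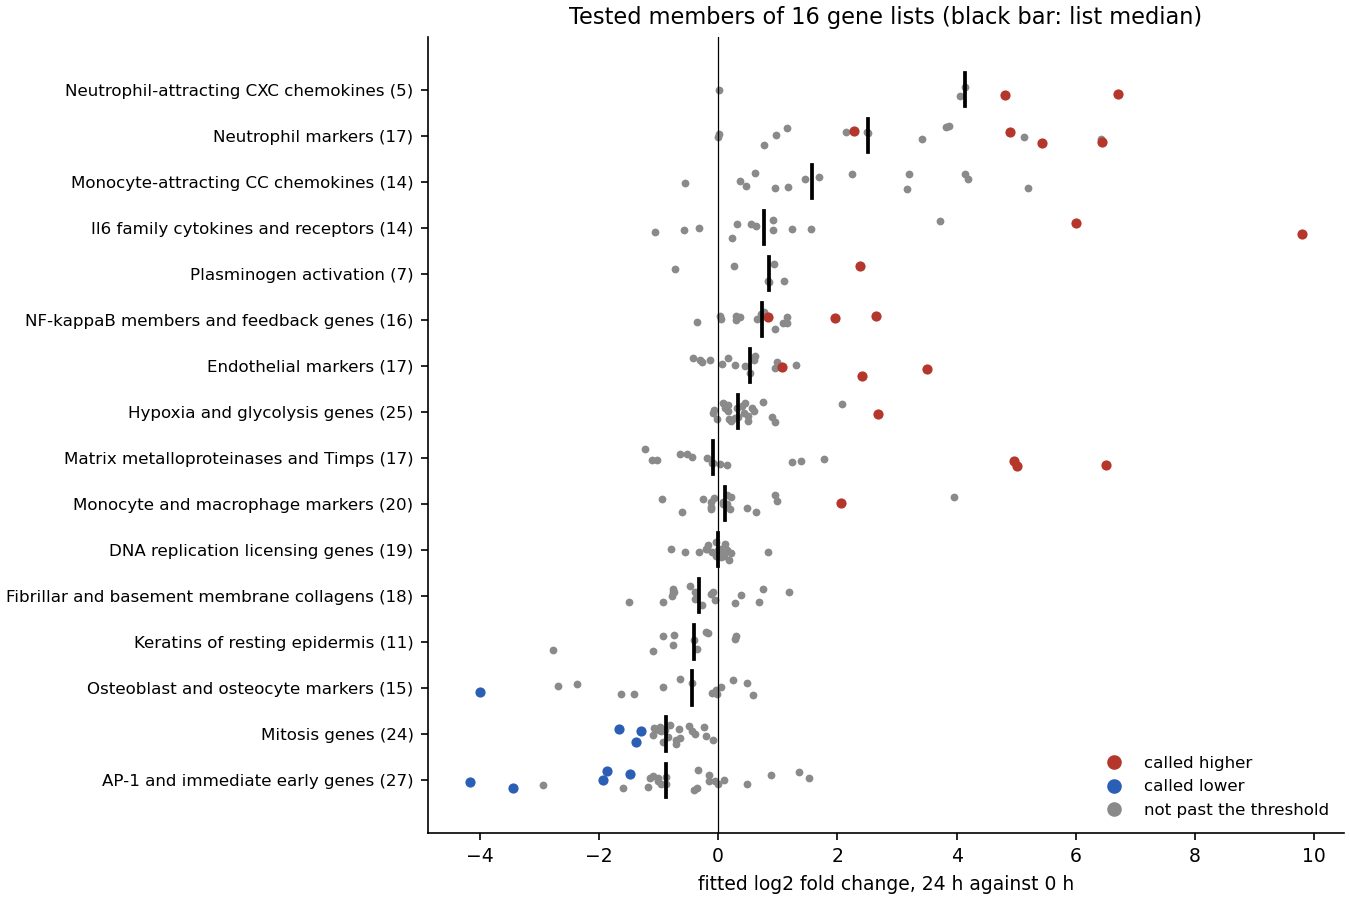
Fitted log2 fold change of 24 h against 0 h (horizontal axis) for the tested members of 16 gene lists (vertical axis, number tested in brackets), 1 point a gene, with a black bar at the list median. Red and blue points passed the test, and the bars run from 4.14 for the CXC chemokines to -0.88 for the AP-1 and immediate early genes.

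Of the genes that rose, 25 stand on no list. The largest changes among them were those of Angptl4, a lipase inhibitor (0.80, 0.426 and 1.1 against 10.4, 13.3 and 3.74 CPM, adjusted p = 0.0274), and Smim3, a small membrane protein (3.76, 1.71 and 5.76 against 34, 32.9 and 30.8 CPM, adjusted p = 0.000394). Smim3 was past the threshold without each mouse in turn, and Angptl4 was not past the threshold without 0 h replicates 1, 2 or 3 or 24 h replicates 1 or 2 (adjusted p from 0.0636 to 0.244). Crispld2, Slc39a14 (a zinc and iron importer) and Gpm6b rose under every alternative. Receptor chains of Il4 and Il13 signalling, Il4ra and Il13ra1, rose as well, as did Dio2, Cxcl14, Pde4b, Basp1, Apold1, Acsl4, Gsdmc, Fkbp1a, Rnf122, Nek6, Kcne4, Mettl7a3, Urah and Ak1. Of these, Basp1 alone was past the threshold without each mouse in turn, though not under every alternative. Each of the others lost the call without 1 or more of the mice. Sec61g and Ndufb2, of protein translocation and the respiratory chain, also rose. Their levels at 24 h were 30.4, 33.9 and 88.1 and 13.2, 21.3 and 72.9 CPM against 16.2, 13 and 18.2 and 11.7, 8.42 and 8.0 at 0 h, highest in the mouse with the high ribosomal protein sum. Sec61g was not past the threshold without 0 h replicates 1 or 2 or 24 h replicate 3 (adjusted p from 0.0854 to 0.201), and Ndufb2 was not past the threshold without 0 h replicates 1, 2 or 3 or 24 h replicate 3 (adjusted p from 0.12 to 0.456).

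Among the AP-1 and immediate early genes, 5 of 27 tested fell and 0 rose. Fos (chr12:85473890-85477273, plus strand), the AP-1 subunit that serum and injury switch on within minutes, had 556, 455 and 779.9 CPM at 0 h and 57.2, 46.9 and 61.2 CPM at 24 h. The highest 24 h mouse was far below the lowest 0 h mouse, and the mean was 10.8-fold lower (log2 fold change -3.44, SE 0.50, adjusted p = 0.000358). Fosb (chr7:19302696-19310051, minus strand), its close relative, had 231, 223 and 435 against 31.1, 7.06 and 10.8 CPM (adjusted p = 0.000104). Jun (chr4:95049034-95052222, minus strand), their dimer partner, had 316, 385 and 288 against 93.9, 73.9 and 105 CPM (log2 fold change -1.86, SE 0.29, adjusted p = 0.000689). These 3 were past the threshold without each mouse in turn. Egr1, a zinc finger factor of the same early response, had 285, 283 and 315 and 98.4, 77 and 56.6 CPM (log2 fold change -1.93, SE 0.43, adjusted p = 0.0281), and Btg2, which restrains the cell cycle, 214, 204 and 265 and 67.1, 65.7 and 113 CPM (log2 fold change -1.47, SE 0.35, adjusted p = 0.0441). Egr1 was not past the threshold without 0 h replicates 1, 2 or 3 or 24 h replicates 1, 2 or 3 (adjusted p from 0.0517 to 0.159), and Btg2 was not past the threshold without 0 h replicates 1, 2 or 3 or 24 h replicates 1 or 2 (adjusted p from 0.0996 to 0.185). The other 22 members did not pass, and the list had a median of -0.88 with 6 above 0. Klf4, an early gene that the upper epidermis also expresses, had 1403, 1332 and 794 and 506, 403 and 1007 CPM, which overlap (adjusted p = 0.51).

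Of 24 tested genes of mitosis 3 fell, and none of the 24 had a fitted log2 fold change above 0. Kif23, a kinesin of the central spindle, had 38.6, 41.1 and 42.4 CPM at 0 h and 17.3, 19 and 13.1 CPM at 24 h (log2 fold change -1.30, SE 0.25, adjusted p = 0.00564). Bub1b, a spindle checkpoint kinase, had 37.9, 42.2 and 31.2 and 22.9, 12.7 and 6.54 CPM (log2 fold change -1.39, SE 0.33, adjusted p = 0.0468), and Cenpe, a kinesin of the centromere, 34.4, 46.5 and 62.1 and 18.8, 12.9 and 13.1 CPM (log2 fold change -1.67, SE 0.38, adjusted p = 0.032). Kif23 was not past the threshold without 24 h replicate 3 (adjusted p = 0.0531), Bub1b was not past the threshold without 0 h replicates 1, 2 or 3 or 24 h replicates 2 or 3 (adjusted p from 0.0736 to 0.264), and Cenpe was not past the threshold without 0 h replicates 1, 2 or 3 or 24 h replicates 1, 2 or 3 (adjusted p from 0.0517 to 0.187). DESeq2 called 7 of the list, and the quasi-likelihood test 1 without 0 h replicate 1, 2 or 3 or without 24 h replicate 2, 2 without 24 h replicate 1 and 0 without 24 h replicate 3. With all mice the other 21 did not pass the quasi-likelihood test, and the median of the list was -0.87. In 17 of the 24 every 24 h mouse was below every 0 h mouse (9% of all tested genes). An unadjusted p under 0.05 was found for 14 (9.41% of all tested genes, either direction). The summed level was 1182 to 1263 CPM at 0 h and 512 to 805 CPM at 24 h, lowest in 24 h replicate 3. Mki67 and Top2a, markers of cycling cells, had 291 ± 27.2 and 147 ± 49.2, and 220.5 ± 4.39 and 116 ± 34.9 CPM, and Prc1 and Birc5, of the dividing spindle, 72.5 ± 8.73 and 35 ± 12.3, and 80.8 ± 18.9 and 43.6 ± 16.8 CPM (SD, n = 3, adjusted p = 0.144, 0.244, 0.20 and 0.628). The list of DNA replication licensing genes, which act earlier in the cycle, had 19 tested members, with 0 calls and 9 above 0. It also holds Gmnn, which inhibits licensing, and Pcna, Rrm1, Rrm2 and Tyms, of DNA and nucleotide synthesis. The summed level of all 19 was 528 to 566 CPM at 0 h and 377 to 666 CPM at 24 h, which overlap. In 0 h replicate 1, Rrm1 and Pcna had 101 and 85.8 CPM of it. Whether the lists differ from each other was not tested.

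The remaining genes that fell were Edar, Tchp and Ezh1. Edar, the ectodysplasin receptor of hair, nail and gland epithelium, had counts of 51, 46 and 25 at 0 h and 0, 0 and 1 at 24 h, a ratio of 0 h to 24 h of 74.1-fold (95% exact interval from 13 to 2949) for counting error only (adjusted p = 0.0461). Tchp, a keratin-binding protein, had 21.4, 35 and 20.8 and 9.81, 7.68 and 4.91 CPM (log2 fold change -1.77, SE 0.40, adjusted p = 0.0317), and Ezh1, a histone methyltransferase, 66.4, 78.5 and 76.6 and 33.5, 51.6 and 37.2 CPM (log2 fold change -0.86, SE 0.19, adjusted p = 0.0325). Edar was not past the threshold without 0 h replicates 1, 2 or 3 or 24 h replicates 1, 2 or 3 (adjusted p from 0.0713 to 0.194), Tchp was not past the threshold without 0 h replicates 1 or 2 or 24 h replicates 2 or 3 (adjusted p from 0.0716 to 0.285), and Ezh1 was not past the threshold without 0 h replicates 1, 2 or 3 or 24 h replicates 1 or 3 (adjusted p from 0.0828 to 0.242).

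Calls were found in 20 of the 49 lists. Of 5 wound-induced keratins none passed, although all were above 0 with a median of 0.44. Krt6a had 1396, 1364 and 1880.0 against 2599, 1729.7 and 1829 CPM, Krt6b 821, 712 and 1023 against 1555, 791 and 1273, Krt16 1064, 838 and 1839.5 against 2127, 1103 and 1854 and Krt17 264, 185 and 278 against 365, 353 and 305 CPM. Among these 4, Krt17 alone had every 24 h mouse above every 0 h mouse (8.77% of all tested genes). Krt6a and Krt6b share over 50% of their 31-base stretches with other genes. Of the 11 keratins of resting epidermis none passed, with a median of -0.41. In 5 of the 11 every 24 h mouse was below every 0 h mouse (9% of all tested genes). Their sum was 93778 to 109873 CPM at 0 h and 50131 to 85562 CPM at 24 h, Krt9 included. The globin genes Hbb-bs and Hba-a2 had 21, 220.2 and 62.7 and 32.9, 201 and 130.4 CPM at 0 h, highest in replicate 2, and 17.4, 11 and 30.8 and 40.8, 25.2 and 40.2 CPM at 24 h (adjusted p = 0.185 and 0.507). Lists of interferon-stimulated genes, circadian clock genes, heat shock genes, BMP signals, EGF receptor ligands, Schwann cells, cartilage, fat, lymphocytes, mast cells and sweat glands held 0 calls.

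In the time course, 24 h was the peak for 31 of the 56 genes that rose, and 0 h the lowest point for 47 of them. For comparison, 12.6% of all tested genes were highest at 24 h and 7.47% lowest at 0 h. The choice of genes for their rise between 0 h and 24 h favours both counts. Il6 had means of 0.0267, 15, 13.1, 16.9 and 46.8 CPM at 0, 3, 6, 12 and 24 h, then 7.7 at 3 d and 4.68 at 7 d. Lif and Mmp3 climbed over the same times to 148 and 809 CPM and stood at 43.6 and 364 CPM at 3 d. Other genes had their highest mean later: S100a9 had 31.9 CPM at 24 h and 94.8 at 7 d, Mmp13 142 CPM at 24 h and 238 at 3 d, and Tnc 301 CPM at 24 h and 475 at 21 d. The mean of Selp was high early and again at 24 h, at 53.7, 35.5, 18, 47.3 and 48.9 CPM at 3, 6, 12 and 24 h and at 3 d. Its 3 h mice were far apart, at 10.2, 73.5 and 77.3 CPM, and it was not called between 12 h and 24 h. Fos was at 138 CPM at 3 h and 55.1 at 24 h, so that most of its fall lay before 3 h. Kif23 was at 34.8 CPM at 12 h, 16.5 at 24 h and 39.4 at 3 d.

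Against the same 0 h mice, 9, 13, 12 and 33 of the 56 genes were also called higher at 3 h, 6 h, 12 h and 3 d, where 35, 26, 23 and 76 genes were called in all (0.254%, 0.189%, 0.167% and 0.551%). These comparisons share their control mice. Set directly against 12 h, 24 h had 0 called genes of 13793 by edgeR's quasi-likelihood test, with 1068 (7.74%) at an unadjusted p under 0.05 and 27 calls by DESeq2. Against 3 d it had 9 (0.0653%), of which 1, Kif23, is among the 12 genes that fell from 0 h to 24 h (log2 fold change -1.25 against 3 d, adjusted p = 0.0394). Without 24 h replicate 2 or 3 d replicate 2 or 3 that number was 5, 4 and 5. All mice of 3 h and 12 h carry July dates, and all of 21 d December or January dates, so time and date period cannot be told apart there.

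**Figure D4:**
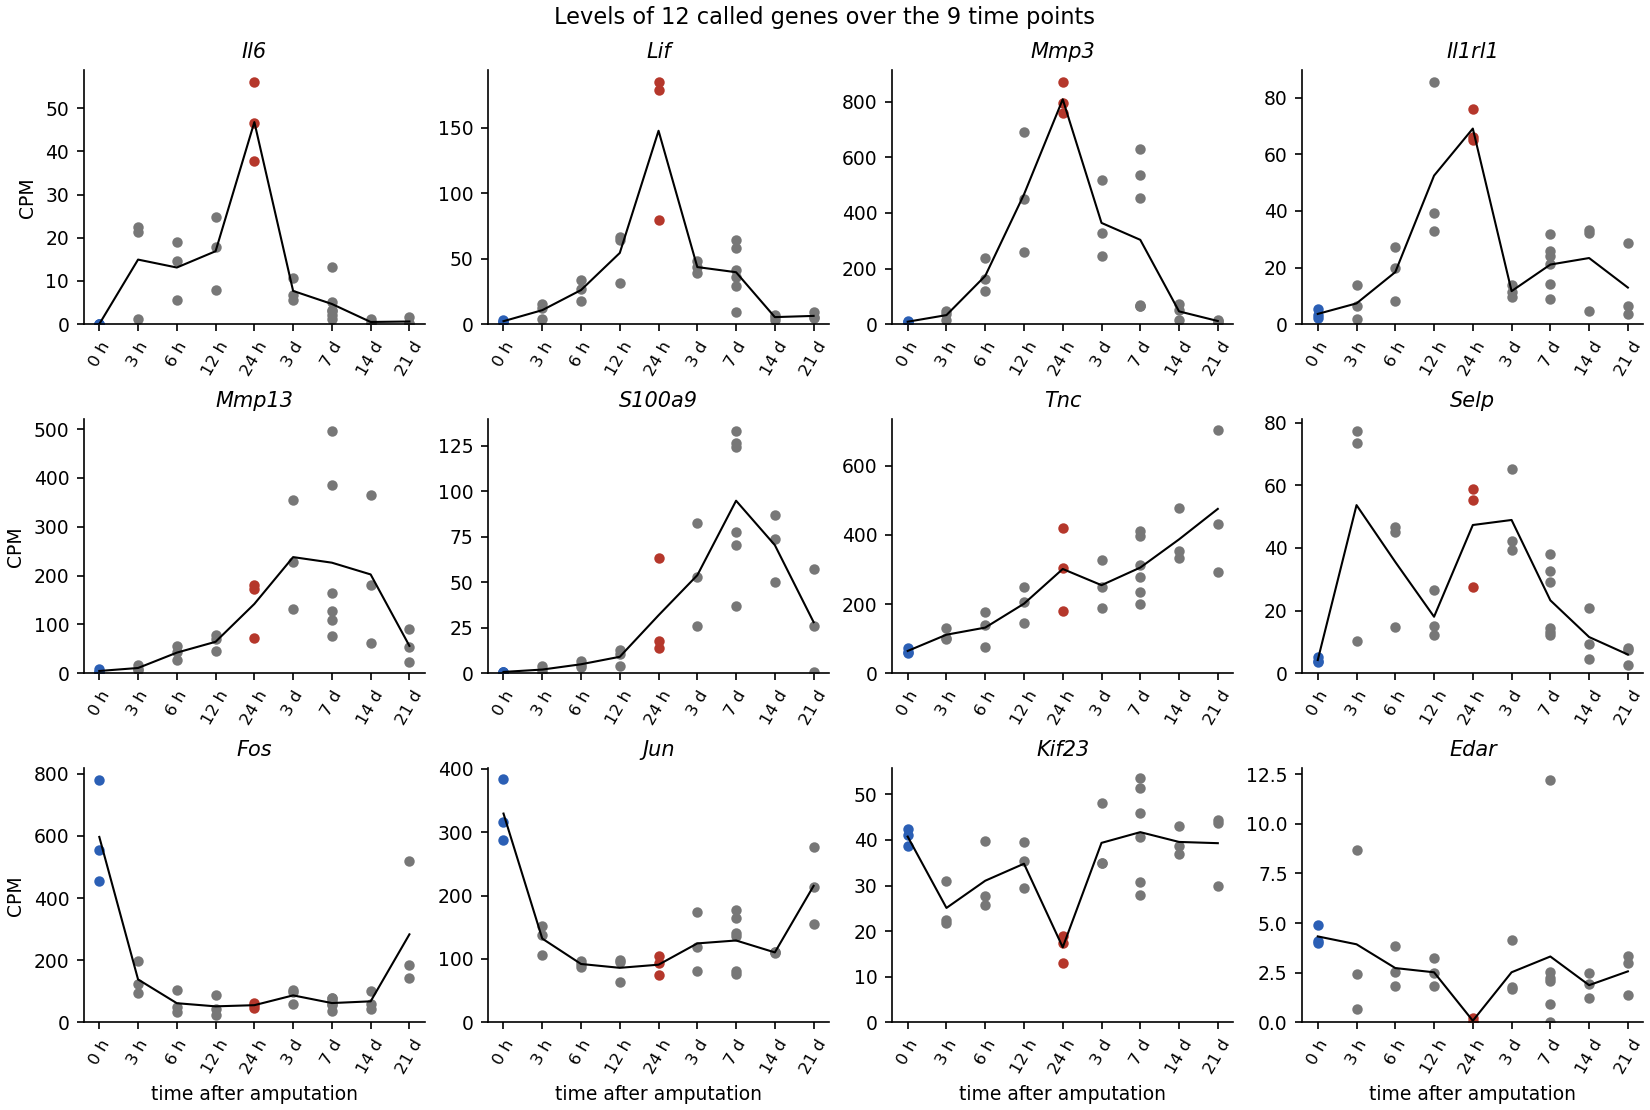
CPM (vertical axis of each panel) of 12 called genes at the 9 time points in order, not to scale of time (horizontal axis), 1 point a mouse, with 0 h in blue, 24 h in red, other times in grey and a line through the means. Il6, Lif, Mmp3 and Il1rl1 have their highest mean at 24 h, Mmp13, S100a9 and Tnc later, and Fos and Jun are already low at 3 h.

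The date periods were examined because 0 h and 24 h each mix them. Within July and August there were 2 mice at 24 h and 1 at 0 h, and within November and December 1 and 2. The difference of mean log2(CPM + 1) had the sign of the call in both periods for all 68 genes, against 55.0% of all tested genes with equal signs in both. Groups that do not overlap fix this sign, so it adds nothing to the calls. The median over the 56 genes was 2.33 in the earlier and 2.117 in the later period. Mmp3 differed by 6.34 and 6.31, Il6 by 5.56 and 5.51, Lif by 5.97 and 4.56, Ptgs2 by 2.73 and 5.42, Fos by -3.89 and -3.02, and Krt9 by -7.63 and -1.18. A test of the difference between the 2 periods' effects called 58 of 13793 genes (0.421%), and 0 of these were among the 68. Of the 58, 25 have an Rps or Rpl symbol, from 75 tested, and 7 a respiratory chain symbol, from 82 tested. All 32 had the larger 24 h effect in the later period. The 75 include Rps19bp1 and leave out Rplp symbols, of which Rplp1 is among the 58. The 82 include the assembly factors Ndufaf1 to Ndufaf7. Both groups of symbols were chosen after the calls were seen. With date period as a covariate 88 genes were called, 67 of the 68 among them. What these dates stand for is unknown.

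**Figure D5:**
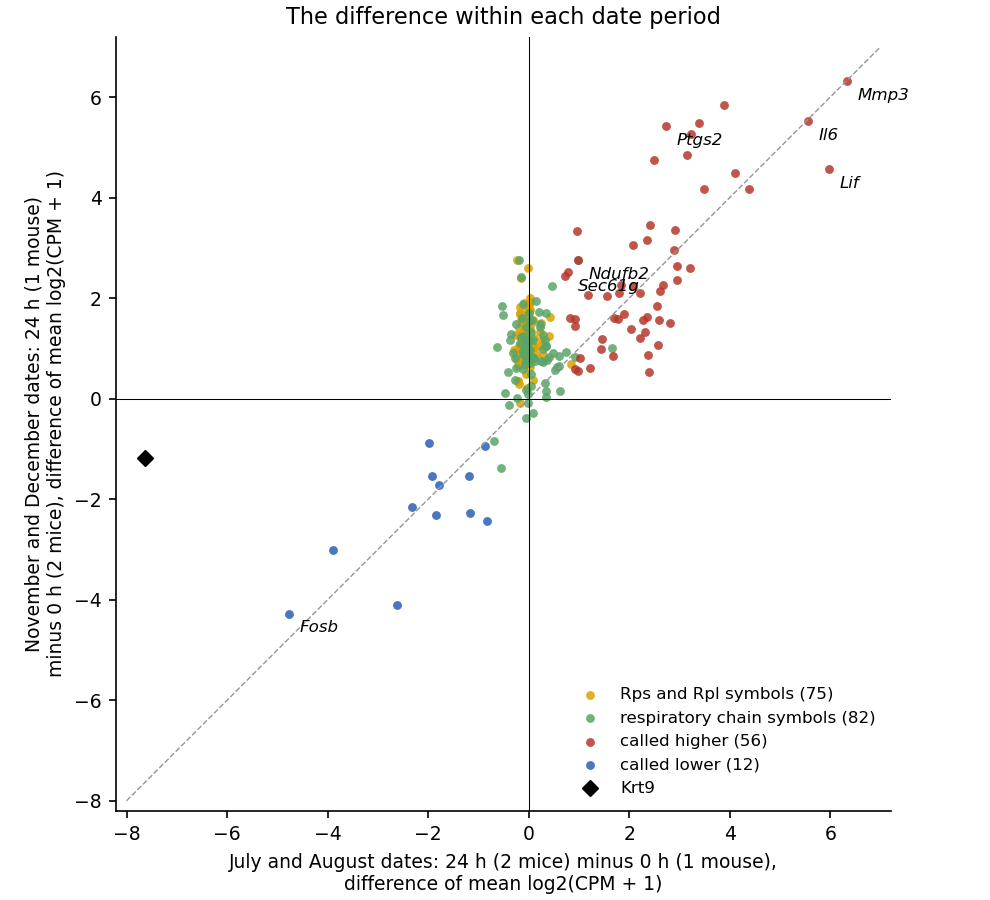
Difference of mean log2(CPM + 1) between 24 h and 0 h within the earlier dates (horizontal axis) and within the later dates (vertical axis), 1 point a gene. The called genes lie in the lower left and upper right, which groups that do not overlap fix, and on both sides of the dashed line of equality. Rps and Rpl symbols (yellow) and respiratory chain symbols (green) lie near 0 in the earlier dates and mostly above 0 in the later dates. Krt9 (black diamond) lies at -7.63 and -1.18.

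The annotation limits some of the genes named. The strand setting of the authors' counting is not given in the sources used here, and exons of Jun, Il1b, Icam1, Adamts4, Adamts9, Selp, Tnc, Bcl3, Ndufb2, Dio2, Il4ra, Nek6, Urah, Tchp, BC100530, Stat3, Prc1, Krt10, Krt6a and Krt6b overlap a gene on the other strand in GENCODE on GRCm38, so that reads of both could be pooled. Over 50% of the 31-base stretches of Mettl7a3, Hba-a2, Hbb-bs and Krt16 occur in another gene, as do 26.6% of those of Sod2, 23.9% of Gsdmc, 21.6% of Serpina3n and 20.6% of Ptges3.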

How the data were processed

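The authors called bases with CASAVA 1.8.2, mapped the reads to Ensembl mouse genes with Bowtie and counted them with RSEM 1.2.3 (versions from the submitters' processing notes, build mm10), and deposited an expected count per gene and mouse, with TPM values from the same run that correct for length. A table of authors' means per time point was not used. Expected counts were rounded. Genes were kept by edgeR's filterByExpr per time point (13793 of 20321, with 99.9% of counts), and edgeR 4.0.16 in R 4.3.3 was fitted to all 30 mice with 1 mean per time point, TMM factors and the quasi-likelihood test. P-values were adjusted over all tested genes, and every adjusted p in the text is from this test. SE is the log2 fold change divided by the root of F. CPM are TMM-scaled, TPM serve only to compare genes. Intervals of count ratios are exact at 95% and cover counting error only. DESeq2 1.42.0 was an alternative, with other filters, factors, sample sets and thresholds and each mouse left out. The fit was first tested on simulated data. Gene positions are those of GENCODE on GRCm38. Each library was counted as a mouse of its own, which the labels leave in doubt for 1 pair at 0 h and 12 h. Named are the 20 largest rises and falls among called genes, every called member of a list, and up to 4 uncalled members per list with the highest mean CPM, while others are given by symbol and direction. The comparison and the gene lists were chosen with earlier results of these data known.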

Additional observations from a re-analysis of the deposited data

Results flagged for a closer look

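The effect of 24 h against 0 h differed between the date periods for 58 of 13793 genes (0.421%) in edgeR's quasi-likelihood test of the difference, with Benjamini-Hochberg adjustment. This is a difference between 2 groups' effects under the same contrast. Its later side rests on 24 h replicate 3, the only 24 h mouse with a November or December date, and its earlier side on 0 h replicate 3, the only 0 h mouse with a July or August date, so that a single mouse and a date period cannot be told apart there. Without 0 h replicates 1 or 2 the number was 33 or 10, and without 24 h replicates 1 or 2 it was 13 or 28. None of the 68 genes called at 24 h was among the 58, the lowest adjusted p of the difference in them was 0.163, and 11 of the 68 had an unadjusted p under 0.05.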

How the results depend on the processing

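No called gene changed direction in any of up to 14 alternatives per gene. As the groups do not overlap in any called gene, the sign had little room to change, so this adds little to the calls. DESeq2's Wald test called 146 genes (112 higher, 34 lower), with all 68 among them, and an adjusted p of 0.01 left 41 (37 and 4). Without the 3 left-foot mice at 7 d, 19 genes were lower. The other alternatives gave 61 to 96 called genes, but not always the same ones: the fit to only the mice of 0 h and 24 h called 77 genes with 50 of the 68 among them, and counts thinned to the lowest total gave 61 with 56 of the 68. The remaining alternatives held 67 or 68 of the 68. Counts within lists moved too: the mitosis list went from 3 calls to 7 with DESeq2 and to 0 to 2 without a mouse, the neutrophil list from 4 to 8 and to 0 to 4, the CXC chemokines from 2 to 3 and to 0 to 2, and the endothelial markers from 3 to 0 to 3 without a mouse. Leaving out a mouse gave 21 to 70 called genes, 16 to 61 higher and 4 to 9 lower. For 24 h against 12 h, DESeq2 called 27 genes and leaving out a mouse 0. For 24 h against 3 d the number was 23 with DESeq2, 5 with only the mice of both time points, 15 with date period as a covariate, 5 at an adjusted p of 0.01, and 4 to 8 without a mouse. The difference between date periods gave 125 genes with DESeq2, 99 without the left-foot mice, 14 at an adjusted p of 0.01 and 10 to 33 without a mouse. It could not be fitted without 0 h replicate 3 or 24 h replicate 3. Col1a1 and Krt16, neither called, changed sign within the earlier date period, to 0.22 and -0.26. The cause of these changes was not tested. No paired analysis was possible because the replicate numbers follow accession order and tie no mouse at 0 h to a mouse at 24 h. With 3 mice a group and totals down to 4843416 counts, a gene that missed the threshold is not shown to be unchanged.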

Other observations

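Some wound genes had too few counts to be tested. Csf3, the growth factor of neutrophils, had 0 counts in the 3 mice at 0 h and 5, 0 and 4 at 24 h. Tnf had 0, 1 and 0 counts at 0 h and 11, 0 and 5 at 24 h. Mmp1b, a collagenase, had 0 counts in all 3 mice at 0 h and 4, 5 and 5 at 24 h.

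The summed level of the mitosis genes was low at 3 h as well as at 24 h. It was 1225 ± 40.8 CPM at 0 h, 550 ± 88.0 at 3 h, 1013 ± 293 at 6 h, 989.8 ± 37.6 at 12 h, 656 ± 147 at 24 h and 1006 ± 218 at 3 d (SD, n = 3 each). Krt9 varied from 24.7 to 19570 CPM over the 30 mice, and within 3 h alone from 330.3 to 19570 CPM.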
